A study of Homo sapiens with 15 samples.

Results

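The transforming growth factor-beta (TGF-beta) pathway was examined through 10 genes in SCC13 cells, a human cell line from a squamous cell carcinoma of the skin. The ligands were TGFB1, TGFB2, TGFB3 and INHBA, the receptors TGFBR1, TGFBR2 and TGFBR3, and the SMAD proteins SMAD2, SMAD3 and SMAD7. They were chosen by name, as the genes to which the accession of an array probe maps, out of 20503 genes named on the array, and each had 1 probe. TGF-beta ligands are secreted in a latent form and, once released, bind a pair of serine/threonine kinase receptors. TGFBR2 binds the ligand and phosphorylates TGFBR1, which phosphorylates SMAD2 and SMAD3, and these enter the nucleus with SMAD4 and change transcription. In keratinocytes the pathway is known as a brake on proliferation, and in advanced squamous carcinoma for its part in migration and invasion.

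Expression was measured on 15 arrays. Untreated SCC13-pUNO cells, which carry the control plasmid pUNO, gave 4 arrays, and untreated SCC13-TLR4 cells, which carry the plasmid pUNO-TLR4GFP, gave 3. Each line also gave 4 arrays after 24 hours with 10 µg/ml ultrapure LPS, the bacterial ligand of the innate immune receptor TLR4. Both lines had been stably transfected and were kept under blasticidin. The SCC13-TLR4 cells had been sorted for a high GFP signal, so plasmid, transfection and sort cannot be told apart from TLR4 itself. Arrays of a group stand for separately seeded wells of 1 line, and p-values therefore measure the spread between wells and arrays, not between independently made lines.

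A level is given here as the log2 intensity of a probe minus the log2 of its array's 75th percentile. A probe was tested when 1 or more of the groups had it marked well above background by the scanner software on each of their arrays. The 75th percentile itself lay at an intensity of 192 to 420. The 15 arrays came from 2 slides, 8 from slide 1 and 7 from slide 2, and every group was split over both. TLR4, the transgene, lay at 2.84 to 3.19 on the 7 arrays of SCC13-TLR4 cells and at -6.40 to -3.80 on 7 of the 8 arrays of SCC13-pUNO cells. The array labelled pUNO untreated 2 had TLR4 at 3.04, against its label. The differences of the members between groups that rest on it are also given without it. So are those of several genes of the lists between the untreated lines. Of 9 keratinocyte markers 8 were well above background on all 15 arrays, and of 8 fibroblast markers 7 were so on none, with COL1A1 the exception. In bulk RNA, fewer cells of a type and less RNA per cell cannot be told apart. Of 5 immune markers, PTPRC, CD14 and CD68 were well above background on all 15 arrays, CD3E on 8 and LYZ on 0. Of 4 endothelial markers CDH5 and VWF were so on all 15, PECAM1 on 10 and KDR on 0, and of 4 melanocyte markers PMEL was so on all 15 and the other 3 on 1 to 4. The part of such cells or signals in the results was not tested.

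Of the 10 genes, 6 were well above background on all 15 arrays: TGFB1, TGFB3, TGFBR2, TGFBR3, SMAD3 and SMAD7. SMAD2 was well above background on 9 arrays, and passed the filter through untreated SCC13-TLR4 cells. These 7 genes were tested. The other 3 were not: INHBA and TGFBR1 were well above background on 1 array each and TGFB2 on 0 of 15.

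No tested member passed the test in any comparison. In untreated cells, with LPS, and for LPS within each line, 0 of the 7 passed an adjusted p of 0.05 (limma, Benjamini-Hochberg over 22685 probes), 0 had an unadjusted p under 0.05, and for 0 did the groups fail to overlap. Over all tested probes 0% passed the adjusted threshold in each of these comparisons. At an unadjusted p under 0.05 the share of all probes was 2.5% for the lines untreated, 2.72% for the lines with LPS, 2.48% for LPS in SCC13-pUNO cells and 1.33% for LPS in SCC13-TLR4 cells. The groups did not overlap for 3.59%, 1.27%, 1.25% and 1.66% of all probes in the same order. Shares of this size amount to less than 1 gene in 7. Without the array labelled pUNO untreated 2, 7 probes (0.0309%) passed for the lines untreated and 10 (0.0441%) with LPS, and none of them was a member.

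The intervals show how large a difference these arrays leave possible. Over the 4 comparisons and the 6 members other than SMAD2, the 24 log2 differences lay between -0.34 and 0.20, and their 95% intervals reached from -0.79 to 0.60, which is 0.58-fold to 1.51-fold. With slide as a factor the same intervals reached from -0.67 to 0.43, or 0.629-fold to 1.35-fold. Both fits keep the array labelled pUNO untreated 2 among the SCC13-pUNO arrays. Without it in the fit of group means, TGFBR3 differed by -0.34 between the untreated lines (SE 0.26, against 0.24 with it). Its interval then reached lower than the bound given here. A p-value above the threshold does not show that the lines had equal levels.

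**Figure D1:**
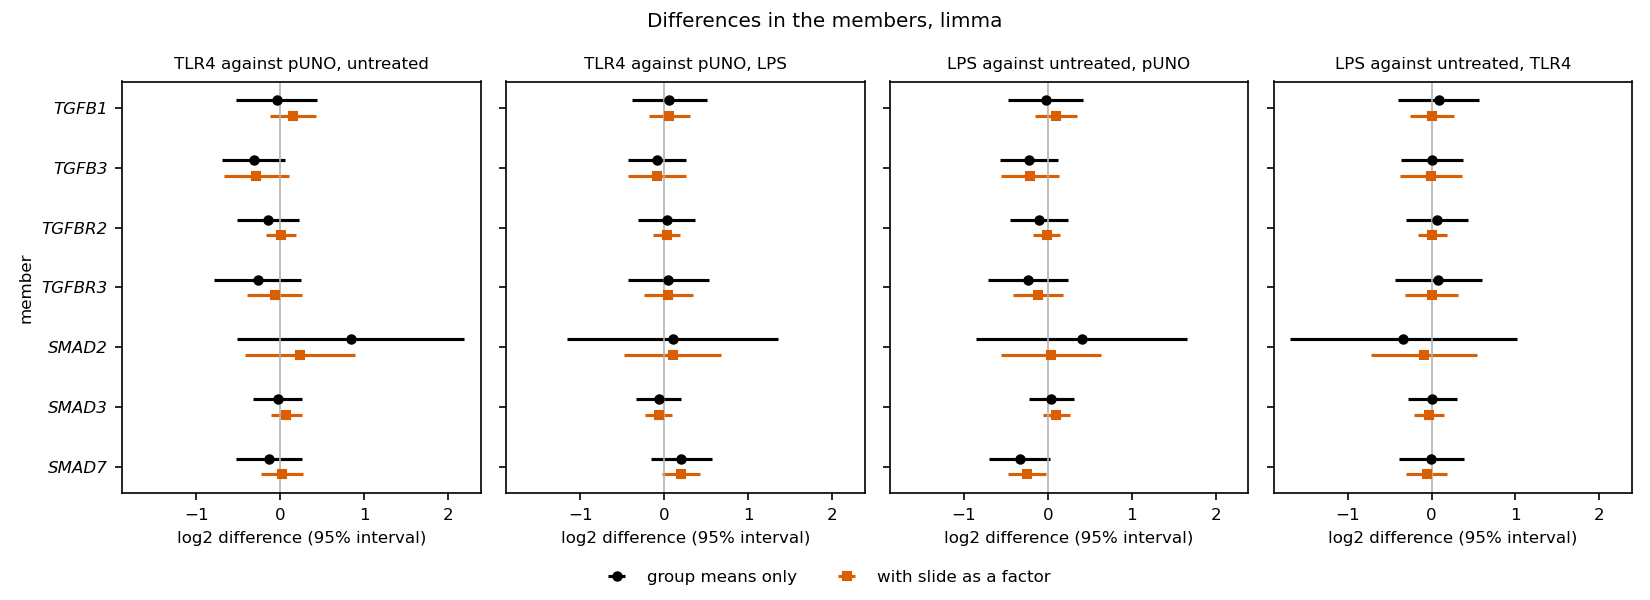
Log2 difference of the 7 tested members in each of the 4 comparisons, with 95% intervals from limma, for the fit with group means alone (black) and with slide as a factor (orange). All intervals include 0 except that of SMAD7 for LPS in SCC13-pUNO cells with slide as a factor (-0.47 to -0.02), and those of SMAD2 are the widest.

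Among the ligands, TGFB1, the main TGF-beta of epidermis, was measured by 10 spots on each array. In untreated SCC13-pUNO cells its level was 0.89, 0.80, 0.61 and 0.34, and in untreated SCC13-TLR4 cells 0.88, 0.68 and 0.28. With LPS it was 1.04, 0.85, 0.16 and 0.50 in SCC13-pUNO cells and 0.86, 0.97, 0.59 and 0.39 in SCC13-TLR4 cells. All 4 groups covered about the same range, and in each of them the lowest array came from slide 2. The 10 spots of 1 array had an SD of 0.047 to 0.096, well under the range of 0.88 over the arrays. The lines differed by -0.04 untreated (SE 0.22, adjusted p = 0.999, limma) and by 0.07 with LPS (SE 0.21, adjusted p = 1.0).

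TGFB3, a ligand better known from wound repair and palate fusion, was dimmer. It read -3.24, -2.80, -2.62 and -2.89 in untreated SCC13-pUNO cells and -3.27, -3.21 and -3.13 in untreated SCC13-TLR4 cells. The groups overlapped through pUNO untreated 1. The difference of -0.32 (SE 0.17) had the smallest p of any member in this comparison, yet it did not pass (p = 0.090, adjusted p = 0.999, limma; exact permutation test over 35 splits, two-sided, p = 0.114). It was -0.38 within slide 1 and -0.29 within slide 2, and -0.29 without the array labelled pUNO untreated 2. With LPS TGFB3 read -2.91, -2.85, -3.13 and -3.57 in SCC13-pUNO cells and -3.32, -3.22, -3.11 and -3.14 in SCC13-TLR4 cells. The SCC13-TLR4 arrays lay inside the span of the SCC13-pUNO arrays. That difference was -0.08 (SE 0.16), and it went opposite ways on the slides, -0.39 on slide 1 and 0.23 on slide 2.

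INHBA encodes the subunit that forms activin A, a ligand of the same family that also signals through SMAD2 and SMAD3. It lay between -4.89 and -3.24, and the highest value, on TLR4 LPS 1, was its only array well above background, with all of its 10 spots marked so there. That array also had the largest share of spots well above background, 56.2% against 47.1% to 53.9% on the other 14. TGFB2 lay between -6.70 and -4.55 and was not well above background on any array. Its highest value was also on TLR4 LPS 1. For comparison, the faintest probe well above background lay at -5.23 to -4.16, depending on the array. No difference is given for these ligands, since INHBA had a measured level on 1 array and TGFB2 on none.

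**Figure D2:**
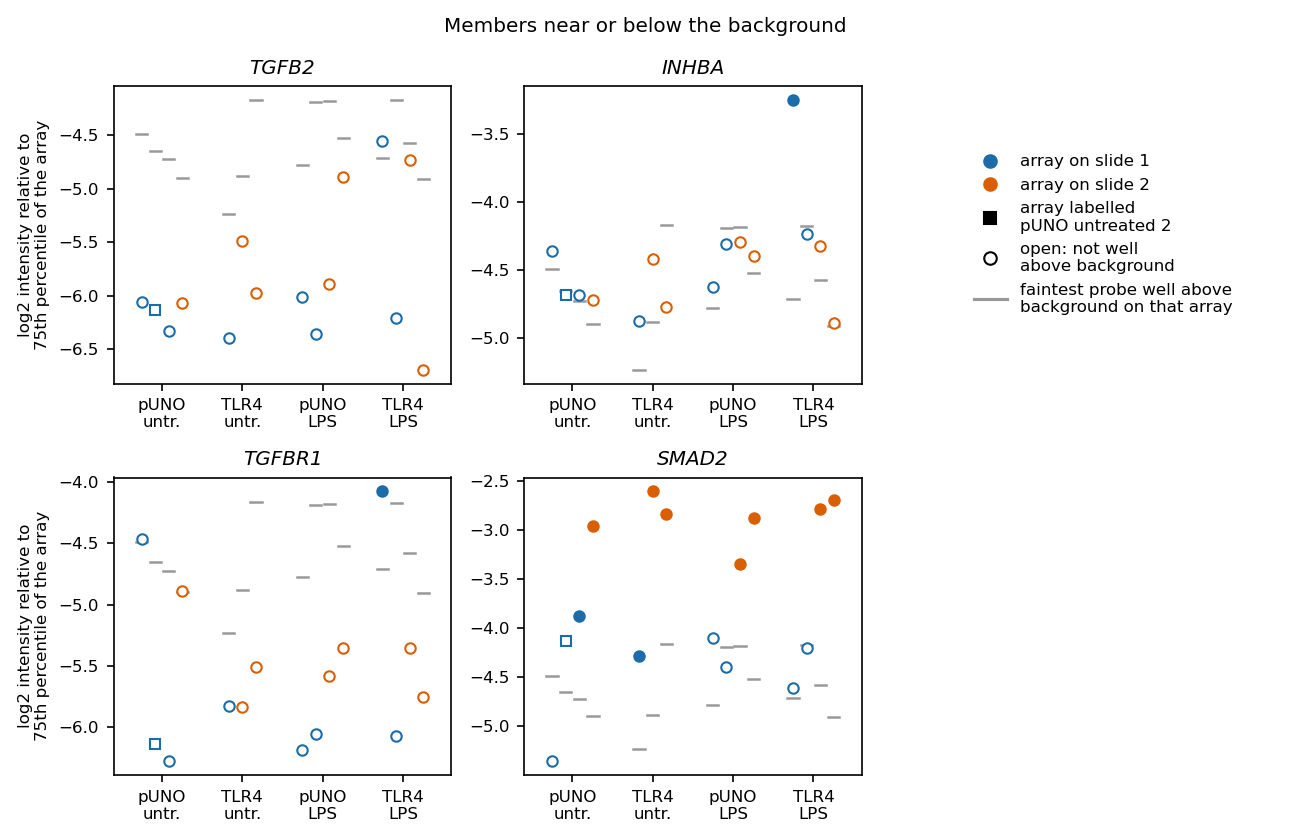
Level of TGFB2, INHBA, TGFBR1 and SMAD2 on each of the 15 arrays by group (log2 relative to its array's 75th percentile), coloured by slide, with open symbols where the probe was not well above background and a grey line at the faintest probe well above background on that array. The arrays of slide 2 are all filled for SMAD2 (7 of 7) and the arrays of slide 1 mostly open (2 of 8 filled).

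Of the receptors, TGFBR2, which binds the ligand, read 2.36, 2.47, 2.39 and 1.96 in untreated SCC13-pUNO cells and 2.41, 1.95 and 2.09 in untreated SCC13-TLR4 cells. After LPS it read 2.35, 2.37, 1.94 and 2.10 in SCC13-pUNO cells and 2.34, 2.43, 1.92 and 2.19 in SCC13-TLR4 cells. The high and the low values separated by slide, not by line or LPS: the 8 arrays of slide 1 lay between 2.34 and 2.47 and the 7 of slide 2 between 1.92 and 2.19. With slide as a factor the lines differed by 0.01 untreated (95% interval -0.17 to 0.19) and 0.03 with LPS (-0.13 to 0.19). LPS shifted TGFBR2 by -0.01 in SCC13-pUNO cells (-0.17 to 0.15) and by 0.01 in SCC13-TLR4 cells (-0.17 to 0.18) in that fit. These are among the tightest intervals of the members.

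TGFBR3, or betaglycan, is a coreceptor that presents ligand to TGFBR2. It read -1.44, -1.99, -1.48 and -2.16 in untreated SCC13-pUNO cells and -1.70, -2.16 and -2.25 in untreated SCC13-TLR4 cells. After LPS it read -1.63, -1.72, -2.37 and -2.30 in SCC13-pUNO cells and -1.74, -1.90, -2.28 and -1.88 in SCC13-TLR4 cells. The groups overlapped throughout. The difference of -0.27 between the untreated lines (SE 0.24) became -0.06 within slide 1, -0.05 within slide 2 and -0.07 with slide as a factor (SE 0.15). TGFBR1, the kinase that phosphorylates SMAD2 and SMAD3, lay between -6.28 and -4.07. It was well above background only on TLR4 LPS 1, the array with the largest share of such spots, so no level can be given for it.

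The receptor-activated SMADs differed from each other in how well they were measured. SMAD3 was the steadiest member, with an SD of 0.14 over all 15 arrays. It read 1.70, 1.86, 1.76 and 1.47 in untreated SCC13-pUNO cells and 1.87, 1.54 and 1.58 in untreated SCC13-TLR4 cells. After LPS it read 1.95, 1.67, 1.69 and 1.65 in SCC13-pUNO cells and 1.86, 1.75, 1.55 and 1.53 in SCC13-TLR4 cells. Neither line nor LPS separated the arrays, and the 4 log2 differences lay within -0.06 to 0.04.

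SMAD2 was near background and the most variable of the tested members. It read -5.36, -4.13, -3.88 and -2.96 in untreated SCC13-pUNO cells and -4.28, -2.60 and -2.83 in untreated SCC13-TLR4 cells. After LPS it read -4.10, -4.39, -3.34 and -2.88 in SCC13-pUNO cells and -4.61, -4.20, -2.79 and -2.70 in SCC13-TLR4 cells. The upper values in each group came from slide 2, where 7 of 7 arrays were well above background against 2 of 8 on slide 1. SMAD2 entered the test only through untreated SCC13-TLR4 cells, where 3 of 3 arrays measured it against 2 of 4 in untreated SCC13-pUNO cells, so its values are a description. The means of the untreated lines differed by 0.84, and by 0.17 within slide 1 and 0.24 within slide 2. With single arrays left out the difference ran from 0.42 (without pUNO untreated 1) to 1.36 (without TLR4 untreated 1). The untreated SCC13-TLR4 group has 1 array on slide 1 and 2 on slide 2, and the untreated SCC13-pUNO group 3 and 1.

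SMAD7 is the inhibitory SMAD, itself induced by TGF-beta, which blocks the receptor and recruits ubiquitin ligases to it. It read 0.42, 0.22, 0.15 and -0.17 in untreated SCC13-pUNO cells and 0.21, -0.01, -0.32 and -0.60 after LPS. In SCC13-TLR4 cells it read 0.16, -0.05 and -0.03 untreated and 0.11, 0.14, -0.01 and -0.13 after LPS. The LPS arrays of SCC13-pUNO cells reached lower than all others, yet overlapped with the untreated ones. The difference of -0.34 with LPS in SCC13-pUNO cells (SE 0.17) had the smallest p of all 28 member values and did not pass (p = 0.068, adjusted p = 1.0, limma; exact permutation test over 70 splits, two-sided, p = 0.171). It was -0.17 within slide 1 and -0.28 within slide 2, and -0.31 without the array labelled pUNO untreated 2. With single arrays left out it ran from -0.47 (without pUNO LPS 1) to -0.20 (without pUNO LPS 4). With slide as a factor it was -0.25 (SE 0.10), the only one of the 28 with an unadjusted p under 0.05 (adjusted p = 1.0, limma), where 3.85% of all probes had one. Without the array labelled pUNO untreated 2 in that fit, 0 of the 28 had one. In SCC13-TLR4 cells LPS shifted SMAD7 by less than 0.01 (95% interval -0.39 to 0.39). The difference between these responses was 0.33 (95% interval -0.20 to 0.87, adjusted p = 1.0, limma), so the response to LPS was not shown to differ between the lines. No member passed that test, and 1.32% of all probes had an unadjusted p under 0.05 in it.

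**Figure D3:**
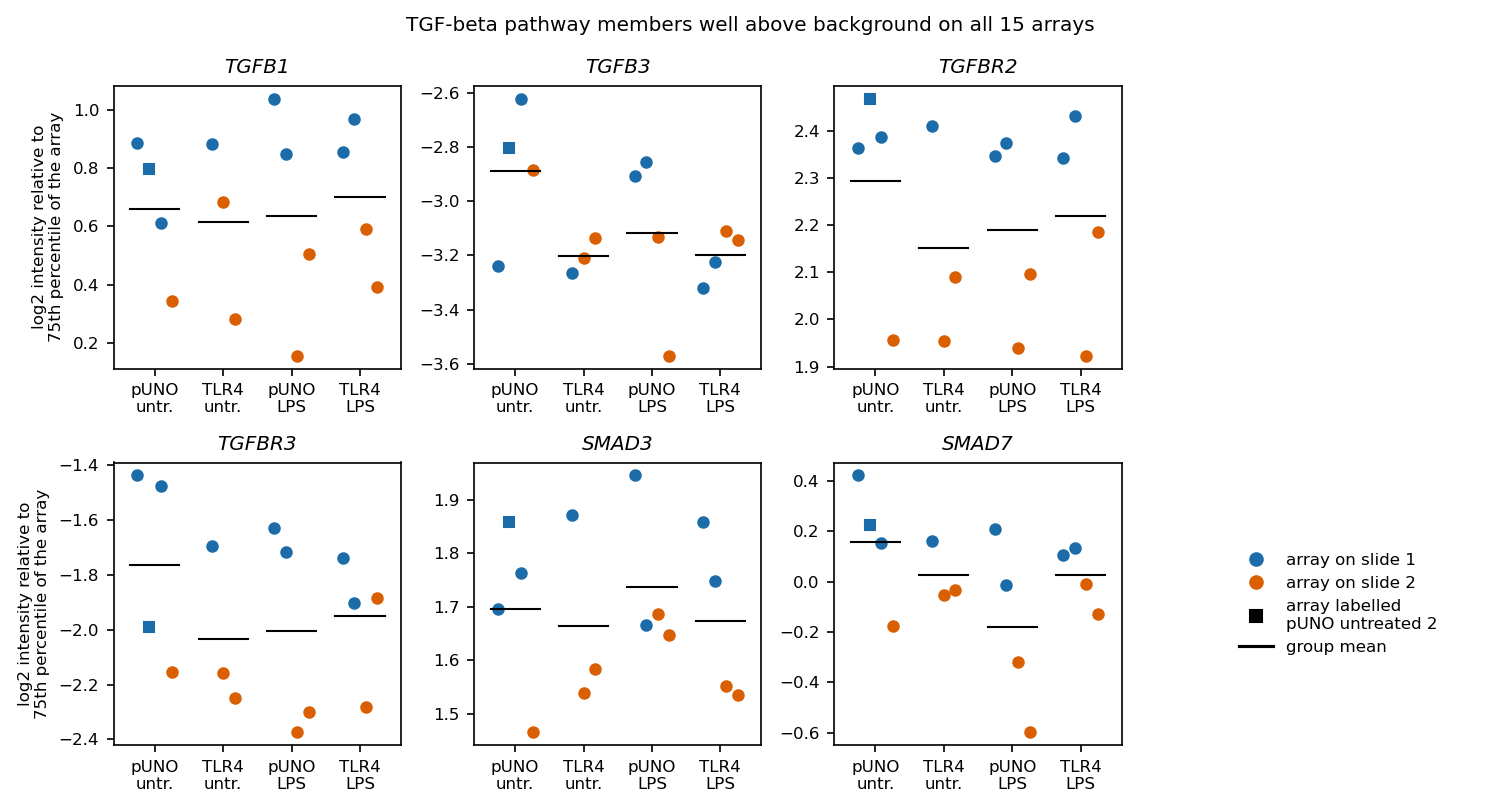
Level of the 6 members that were well above background on all 15 arrays (log2 relative to its array's 75th percentile), with 1 point per array by group, coloured by slide, and a line at the mean of each group. The square marks the array labelled pUNO untreated 2. For TGFBR2 all 8 points of slide 1 lie above all 7 of slide 2, while the 4 group means lie between 2.15 and 2.29.

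Between the slides most of the tested members differed in their mean. The arrays of the slides still overlapped for TGFB1, TGFB3, TGFBR3, SMAD3 and SMAD7. With group and slide in 1 fit, 5 of the 6 tested members other than SMAD2 differed between the slides at an adjusted p under 0.05 (limma). Of all probes 51.8% did. Slide 2 was lower for TGFB1 by -0.47 (SE 0.09), TGFBR2 by -0.37 (SE 0.06), TGFBR3 by -0.49 (SE 0.10), SMAD3 by -0.24 (SE 0.06) and SMAD7 by -0.35 (SE 0.08). It was higher for SMAD2 by 1.45 (SE 0.20), which is a description, since SMAD2 was well above background on 2 of 8 arrays of slide 1. TGFB3 did not pass (-0.08, SE 0.12, adjusted p = 0.615, limma). The median of all probes was -0.13, and these 5 members lay below it. Quantile normalization and normexp background correction gave the same 5 members with the same signs, and SMAD2 was again higher on slide 2. The sign of TGFB3 turned to 0.01 with normexp. What set the slides apart was not tested. With slide as a factor 7 of the 28 differences changed sign, none of them past the threshold in either fit.

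The array labelled pUNO untreated 2 enters the comparison of the untreated lines and that of LPS in SCC13-pUNO cells. Without it the untreated lines differed by 0.002 for TGFB1, -0.085 for TGFBR2, -0.34 for TGFBR3, 0.82 for SMAD2, 0.02 for SMAD3 and -0.11 for SMAD7, so that TGFB1 and SMAD3 turned sign. LPS in SCC13-pUNO cells then shifted TGFB1 by 0.02, TGFB3 by -0.20, TGFBR2 by -0.05, TGFBR3 by -0.32, SMAD2 by 0.39 and SMAD3 by 0.10, and TGFB1 turned sign. The groups still overlapped for each of the 7 members in both comparisons.

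**Figure D4:**
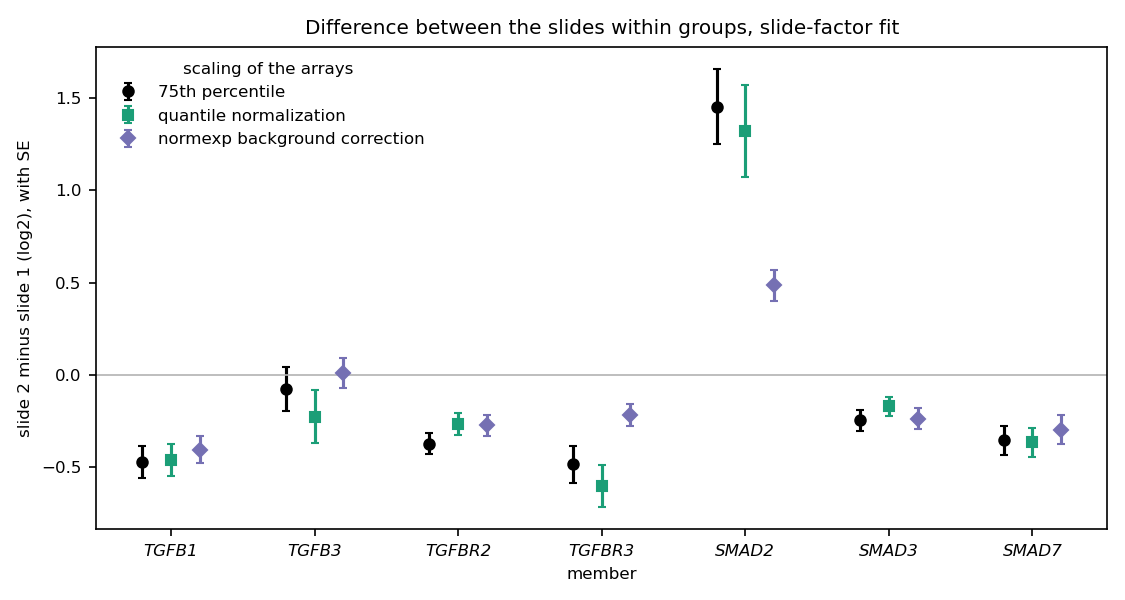
Slide 2 minus slide 1 (log2) for the 7 tested members with group in the same fit, with bars of 1 SE, under 3 ways of scaling the arrays. TGFB1, TGFBR2, TGFBR3, SMAD3 and SMAD7 lie below 0 under each, SMAD2 above 0 under each (1.45 at the 75th percentile, 0.48 with normexp), and TGFB3 lies at -0.08, -0.23 with quantile normalization and 0.01 with normexp.

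The wider pathway was read from 6 lists with 81 genes besides the members: proteins of the latent complex and its activation, other ligands, other receptors, other SMADs and partners, inhibitors, and targets. All had a probe and 56 were tested. None passed an adjusted p of 0.05 in any comparison. At an unadjusted p under 0.05 there were 1 higher and 1 lower in untreated SCC13-TLR4 cells, where 1.62% and 0.877% of all probes were, and 2 higher and 0 lower with LPS, where 1.27% and 1.45% were. There were 0 for LPS in either line. With slide as a factor there were 7 of 56 for the untreated lines, where 5.55% of all probes had one, and 5 of 56 with LPS, where 6.43% did. Both sets were named after their values were seen. Of the 7 untreated, CDKN1A (0.34), CDKN2B (0.39), FST (0.39), GDF11 (0.22) and LTBP2 (0.45) were higher in SCC13-TLR4 cells. NOG (-0.52) and SMAD5 (-3.37, SE 1.43) were lower. SMAD5 was well above background on 14 arrays, and the array where it was not belonged to untreated SCC13-TLR4 cells. The SMAD5 value therefore includes an array without a measured level. With LPS the lines differed by 0.02 for SMAD5 (SE 1.30). The 5 with LPS were CDKN1A (0.31), FST (0.45) and GDF11 (0.15), which were higher in SCC13-TLR4 cells, and ID1 (-0.25) and SMAD6 (-0.46), which were lower. None of these passed the adjusted threshold. The median log2 difference of the 56 was -0.04 between the untreated lines and 0.02 with LPS, beside -0.02 and -0.01 over all probes.

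Of the classical targets, TGFBI, a secreted matrix protein named for its induction by TGF-beta, gave small values in every comparison. It differed between the lines by -0.10 untreated (SE 0.16) and -0.02 with LPS (SE 0.15). The sign was not stable: it turned with slide as a factor in untreated cells (0.04) and under quantile and normexp scaling with LPS. LPS shifted TGFBI by -0.10 in SCC13-pUNO and -0.01 in SCC13-TLR4 cells. CCN2, a further classical target, was well above background on 0 of 15 arrays.

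PMEPA1, a target that also dampens SMAD signalling, read 3.40, 2.85, 2.98 and 2.44 in untreated SCC13-pUNO cells and 2.71, 2.66 and 2.40 in untreated SCC13-TLR4 cells. The difference was -0.33 (SE 0.24, adjusted p = 0.999, limma) and was -0.17 with slide as a factor. With LPS it was -0.04 (SE 0.22). A dimmer probe of the gene gave -0.35 untreated (SE 0.14) and -0.30 with LPS (SE 0.13), each with an unadjusted p under 0.05 and short of the adjusted threshold. Of all probes, 0.877% untreated and 1.45% with LPS were lower with such a p. On that dimmer probe the untreated SCC13-TLR4 arrays (1.99 to 2.07) all lay below the untreated SCC13-pUNO arrays (2.24 to 2.51). The same held for 1.49% of all probes, and the arrays with LPS overlapped on the dimmer probe. Within lines, LPS shifted the brighter probe by -0.17 in SCC13-pUNO and 0.12 in SCC13-TLR4 cells.

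FST encodes follistatin, a secreted protein that binds and neutralizes activin. With LPS it read -0.65, -0.38, -0.48 and -0.34 in SCC13-pUNO cells and -0.25, 0.03, 0.25 and -0.07 in SCC13-TLR4 cells. Every SCC13-TLR4 array lay above every SCC13-pUNO array (16 of 16 pairs), as 0.556% of all probes did. The difference was 0.45, or 1.37-fold (SE 0.15, adjusted p = 1.0, limma). It was 0.41 within slide 1 and 0.49 within slide 2.

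FST in untreated cells is given here because of its values with LPS. SCC13-pUNO cells read -0.82, -0.04, -0.36 and -0.41 and SCC13-TLR4 cells -0.08, 0.09 and 0.07. The only SCC13-pUNO value within the SCC13-TLR4 range came from pUNO untreated 2, the array with TLR4 against its label. The difference was 0.43 (SE 0.17, adjusted p = 0.999, limma). Without that array it was 0.56 and the groups did not overlap, as for 7.12% of all probes. These values did not pass the adjusted threshold with or without the array. INHBA, the subunit of activin A, had no measured level to set beside them. INHBB, a further activin subunit among the other ligands of the lists, was well above background on all 15 arrays. It differed between the lines by -0.13 untreated (SE 0.11) and -0.10 with LPS (SE 0.10), neither past the adjusted threshold.

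On the brightest probe, groups also failed to overlap for 3 genes of the lists in untreated cells and for 1 with LPS in SCC13-TLR4 cells. None was past the adjusted threshold. NOG, or noggin, an antagonist of the related bone morphogenetic proteins, read -0.50, -0.45, -0.22 and -0.39 in SCC13-pUNO cells and -1.0, -0.92 and -0.55 in SCC13-TLR4 cells. All SCC13-TLR4 arrays were the lower ones, as for 1.49% of all probes, with a difference of -0.43 (SE 0.17, adjusted p = 0.999, limma). TAGLN, an actin-binding target, read -2.39, -2.41, -2.45 and -2.27 against -2.12, -1.70 and -1.98, with every SCC13-TLR4 array higher, as for 2.1% of all probes (0.44, SE 0.23, adjusted p = 0.999, limma). CDKN2B, a cyclin-dependent kinase inhibitor and target, differed by 0.31 in the same way (SE 0.19). All 3 kept their sign within both slides, and without the array labelled pUNO untreated 2 they differed by -0.45, 0.43 and 0.35. Without it TGFBI differed by -0.07 and PMEPA1 by -0.35 between the untreated lines. With LPS TAGLN differed by -0.36 (SE 0.22), the opposite sign, and NOG by -0.24 (SE 0.16). That NOG difference went opposite ways on the slides, 0.05 on slide 1 and -0.54 on slide 2. For neither TAGLN nor NOG did the difference between the lines in their response to LPS pass, since 0 of all probes did. For LPS in SCC13-TLR4 cells COL7A1, the collagen of anchoring fibrils, differed by 0.26 (SE 0.20, adjusted p = 1.0, limma), higher in 12 of 12 pairs of arrays, as 0.982% of all probes were.

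CDKN1A, the cyclin-dependent kinase inhibitor p21 and a target in keratinocytes, was the other gene with an unadjusted p under 0.05 with LPS, and was named after its values were seen. It read -2.51, -2.30, -2.71 and -2.61 in SCC13-pUNO cells and -2.24, -1.97, -2.40 and -2.30 in SCC13-TLR4 cells. The SCC13-TLR4 arrays were higher in 15 of 16 pairs, by 0.31 (SE 0.13, adjusted p = 1.0, limma), with 0.30 within slide 1 and 0.31 within slide 2. Untreated, the difference was 0.26 (SE 0.14), and 0.37 without the array labelled pUNO untreated 2, which at -2.35 lay within the SCC13-TLR4 range of -2.46 to -2.33.

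**Figure D5:**
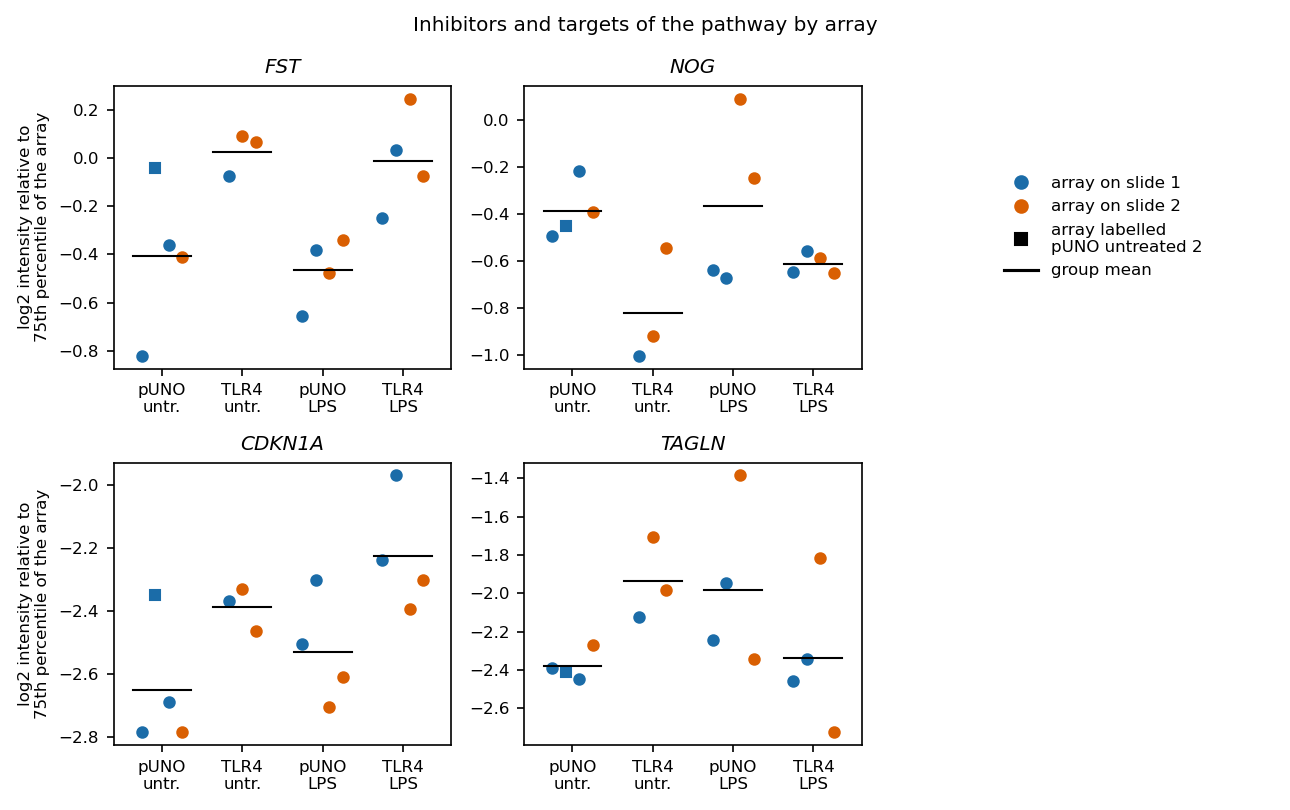
Level of FST, NOG, CDKN1A and TAGLN on each array (log2 relative to its array's 75th percentile) by group, coloured by slide, with a line at the mean of each group. For FST and CDKN1A the square, the array labelled pUNO untreated 2, lies within the range of the untreated SCC13-TLR4 arrays, at -0.04 and -2.35. For NOG and TAGLN it lies within the range of the other untreated SCC13-pUNO arrays, at -0.45 and -2.41.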

How the data were processed

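RNA of SCC13 cells was labelled with Cy3 and hybridised to SurePrint G3 Human 8x60K arrays. The authors deposited spot intensity values on a linear scale. Per the file headers, Feature Extraction 10.7.3.1 had subtracted the background from each intensity. The deposited values were not scaled between arrays. The build of the array grid differs from that of the annotation, so no coordinates are given.

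Log2 intensity minus the 75th percentile of the 58717 spots that were not controls was taken per array. Spots marked as outliers (300 to 646 an array) were left out and the spots of a probe averaged. A probe counted as well above background on an array when at least 0.5 of its spots were. Probes well above background on all arrays of at least 1 group were tested, 22685 of 50599. Groups followed the sample labels. limma 3.58.1 (R 4.3.3) fitted 1 mean per group over all 15 arrays, with Benjamini-Hochberg adjustment over all tested probes. The exact permutation test compared group means over all splits of the arrays. The scripts were tested on simulated data.

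The members and lists were chosen with earlier results of these data known. From the lists were named CCN2, TGFBI and PMEPA1 and, per comparison, up to 3 genes with the largest difference among those whose groups did not overlap. A gene with several tested probes was read from the brightest. A further gene is not reported here. Symbols came from RefSeq accessions.

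Same-numbered arrays deviated together in the comparison of the lines with LPS (r of 0.38 to 0.62, 4 of 4 pairs), where numbers also follow the slide, and not throughout in the others (lowest r of -0.20, -0.40 and -0.34). Alternatives were quantile and normexp scaling, other filters, slide as a factor, the replicate number as a block, and each array left out. The number of arrays limits the precision.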

Additional observations from a re-analysis of the deposited data

Results flagged for a closer look

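In 2 of 45 groups of 4 arrays examined, 1 array lay far from the other 3, by Dixon's ratio of gap to range at its 95% critical value, where chance would mark about 2.25. Both were the array pUNO LPS 1: SMAD3 read 1.95 there against 1.65 to 1.69 on the other 3 arrays, and PMEPA1 read 3.16 against 2.58 to 2.63. Neither gene passed in any comparison with that array.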

How the results depend on the processing

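No tested member and no tested pathway gene, each read from its brightest probe, passed the adjusted threshold under any of the alternatives run. Other probes and the genes not tested were not part of that count. Of 1150 alternative values for 46 gene differences given in the text, 1063 kept their sign and 87 changed it, none of the latter past the threshold. Part of them could not change sign, so the count does not measure stability. Leaving out an array of a group not compared gives the same difference of means. So does another filter, another estimate of the spread, or a fit of the 2 groups alone. The smallest adjusted p was 0.453 (FST with LPS, slide as a factor without pUNO untreated 2), and 0.63 where the left-out array was the only change. The differences given for TGFB3, TAGLN, NOG, CDKN2B, FST and CDKN1A between the untreated lines, for FST and CDKN1A with LPS, for SMAD7 with LPS in SCC13-pUNO cells and for COL7A1 kept their sign throughout.

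Over all probes, 0 passed in each comparison, and in the comparison of the lines untreated this became 7 without the array labelled pUNO untreated 2, 3 without TLR4 untreated 3, and 11 without the former array in a fit with slide. For the lines with LPS it became 10, 5 with the 2 groups alone, and 22 with slide as a factor without that array. With each array left out in turn the counts ran from 0 to 7 for the lines untreated, 0 to 10 with LPS, 0 to 1 for LPS in SCC13-pUNO cells (1 without pUNO LPS 2), 0 to 3 for LPS in SCC13-TLR4 cells and 0 to 2 for the difference between the lines in their response (3 and 2 without TLR4 untreated 3).

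Signs turned as follows, and the cause was not tested. With slide as a factor, the lines untreated differed by 0.15 for TGFB1, 0.012 for TGFBR2, 0.071 for SMAD3, 0.018 for SMAD7 and 0.038 for TGFBI. LPS shifted TGFB1 by 0.095 in SCC13-pUNO cells and in SCC13-TLR4 cells TGFB3 by -0.0079 and SMAD3 by -0.032. With the array labelled pUNO untreated 2 left out of that fit, the values for the lines untreated were 0.16, 0.037, 0.10, 0.011 and 0.041 for the same genes. LPS in SCC13-pUNO cells gave 0.10 for TGFB1 and 0.014 for TGFBR2, and in SCC13-TLR4 cells -0.0068 for TGFB3, -0.0040 for TGFBR3 and -0.030 for SMAD3. With normexp background correction TGFBR2 turned to 0.0088 and SMAD3 to 0.021 between the untreated lines. With LPS TGFBR3 turned to -0.033, SMAD2 to -0.057 and TGFBI to 0.12. In SCC13-pUNO cells LPS then shifted TGFB3 by 0.0080, and in SCC13-TLR4 cells TGFB3 by -0.0067, TGFBR2 by -0.065, SMAD3 by -0.077 and TGFBI by 0.020. With quantile normalization SMAD3 turned to 0.00087 between the untreated lines. With LPS SMAD2 turned to -0.14 and TGFBI to 0.040, and LPS in SCC13-TLR4 cells shifted TGFB3 by -0.16.

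With each array left out in turn, the values whose sign turned ranged as follows. For the lines untreated, TGFB1 ran from -0.18 to 0.12 and SMAD3 from -0.13 to 0.032. For the lines with LPS, TGFB1 ran from -0.095 to 0.20, TGFB3 from -0.23 to 0.0040, TGFBR2 from -0.053 to 0.13, TGFBR3 from -0.070 to 0.18, SMAD2 from -0.19 to 0.45, SMAD3 from -0.12 to 0.0068, TGFBI from -0.081 to 0.10 and PMEPA1 from -0.19 to 0.10. For LPS in SCC13-pUNO cells, TGFB1 ran from -0.16 to 0.14, SMAD2 from -0.022 to 0.78 and SMAD3 from -0.036 to 0.10. For LPS in SCC13-TLR4 cells, TGFB1 ran from -0.082 to 0.22, TGFB3 from -0.026 to 0.045, TGFBR2 from -0.030 to 0.20, TGFBR3 from -0.025 to 0.25, SMAD2 from -0.86 to 0.010, SMAD3 from -0.054 to 0.11, SMAD7 from -0.039 to 0.067, TGFBI from -0.095 to 0.11 and PMEPA1 from -0.037 to 0.25.

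The replicate number as a block changed no call: 0 probes passed in every comparison. For LPS in SCC13-TLR4 cells it turned SMAD7 to 0.10 and TGFBI to 0.059. With the block SMAD2 differed by 1.15 between the untreated lines. No p is given for it, since SMAD2 entered the test only through untreated SCC13-TLR4 cells. SMAD7 with LPS in SCC13-pUNO cells differed by -0.34 with the block and did not pass (adjusted p = 0.914, limma). The labels give the replicate numbers no meaning beyond a count. Pairs 1, 2 and 4 of LPS against untreated in SCC13-pUNO cells share a slide. Of the pairs of untreated lines, pair 1 does, and pairs 2 and 3 set a slide 1 array of SCC13-pUNO against a slide 2 array of SCC13-TLR4, beside the slide difference of 1.45 for SMAD2.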
